A study of Mus musculus with 9 samples.

Results

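Trpm6, Trpm7, Cnnm2 and Slc41a3 are 4 genes of magnesium handling among the 19858 genes listed in 2 tables of nuclear UMI counts from mouse kidney. They were chosen because earlier results of these data had Trpm6 stand out in proximal tubule nuclei after ischemia, so the difference of each between injured and control proximal tubule is given as a description, without a test. A UMI is a molecular tag that counts 1 captured RNA molecule, and a gene absent from 1 of the tables was counted as 0 there. Over 27738 nuclei, Trpm6 had 7709 UMIs, Trpm7 had 25554, Cnnm2 had 5062 and Slc41a3 had 82.

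Adult male mice of 11 to 19 weeks were used in all groups, and GFP-positive nuclei sorted from frozen kidney were profiled. The IRI mice (ischemia-reperfusion injury, both renal pedicles clamped for 18 min) carried Krt20T2A-CE; INTACTnuGFP/+, in which tamoxifen at 0.05 mg/g labels the nuclei of cells that express the injury keratin Krt20. Their kidneys were taken on day 7 (n = 2 libraries) or day 28 (n = 3 libraries). The control mice (n = 4 libraries, of which 3 had sham surgery and control 1 had no surgery) carried Six2TGC; Rosa26rtTA; pTRE-H2BeGFP and received doxycycline food at 625 mg/kg, which labels nephron nuclei in general. Uninjured Krt20T2A-CE mice and injured Six2TGC mice were not analysed here, so injury, reporter line, drug and the population that the sort keeps cannot be told apart between IRI and control.

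The libraries held 1397 to 4564 nuclei each, with median depths of 1963 and 3172 UMIs per nucleus on day 7, 1185 to 4174 on day 28 and 668 to 1938 in controls. The starts of the barcodes showed the older 10x set (v2) in day 28 library 1 and in all controls and the newer set (v3) in the other 4 IRI libraries, and at most 26 barcodes were shared by any pair of libraries. Nuclei were clustered without the 4 genes and without 37 other magnesium genes, and clusters were named from marker lists by a scoring rule set after the scores were seen. That gave 20505 proximal tubule-like (PT-like), 1651 thick ascending limb-like (TAL-like) and 1059 distal-like nuclei, the last made of a distal convoluted tubule (DCT) cluster, a connecting tubule-led cluster and a principal cell-led cluster. Slc12a1 defined the TAL-like class at 7383 CPM (the UMIs of a gene in the summed nuclei over all their UMIs, scaled to parts per 10 to the power 6) in IRI libraries, against 38.3 CPM elsewhere, and Slc12a3 the distal-like class at 4380 CPM, against 17.6 CPM elsewhere. Of the PT-like nuclei, 7940 lay in 8 clusters that scored highest on the injury list (Havcr1, Vcam1, Ccl2 and others), and 25 of these nuclei came from controls. Those 8 clusters scored below other nuclei on the classical proximal markers. Their Lrp2 in IRI libraries was 321 CPM, against 1777 CPM in the other PT-like nuclei and 400 CPM in endothelium-, stroma- and leukocyte-like nuclei. Over all PT-like nuclei of IRI libraries Lrp2 was 608 CPM, against 679 CPM elsewhere, which includes an unnamed cluster at 1197 CPM. The proximal label of the injury-led clusters thus rests on the injury list.

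Magnesium that passes the glomerulus is taken back mostly between cells, through claudin pores of the thick ascending limb, and its last adjustable step is entry into cells of the distal convoluted tubule. Trpm6 is the magnesium channel of the luminal membrane there, Trpm7 is its widely expressed relative with the same joined channel and kinase, Cnnm2 sits in the basolateral membrane of the same cells, and Slc41a3 is a carrier whose loss lowers blood magnesium in mice.

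Trpm6 lies on chromosome 19 at positions 18749983 to 18892511 on the plus strand and Trpm7 on chromosome 2 at 126791565 to 126876230 on the minus strand (GRCm38, GENCODE vM21). The start regions of this related pair are shown because their RNAs differed in opposite directions in PT-like nuclei. Both are RefSeq windows of 300 bases in GRCm38.p6, 250 before to 50 after the start that RefSeq gives, 5′ to 3′ on the gene's strand, at chr19:18749480-18749779 (plus) and chr2:126876212-126876511 (minus), with every CG in capitals.
Trpm6: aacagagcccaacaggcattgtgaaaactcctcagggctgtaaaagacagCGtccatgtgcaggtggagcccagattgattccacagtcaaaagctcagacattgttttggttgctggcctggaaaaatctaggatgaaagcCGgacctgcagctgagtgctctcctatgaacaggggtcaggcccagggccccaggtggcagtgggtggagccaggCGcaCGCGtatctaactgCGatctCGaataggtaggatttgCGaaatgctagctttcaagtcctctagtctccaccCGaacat
Trpm7: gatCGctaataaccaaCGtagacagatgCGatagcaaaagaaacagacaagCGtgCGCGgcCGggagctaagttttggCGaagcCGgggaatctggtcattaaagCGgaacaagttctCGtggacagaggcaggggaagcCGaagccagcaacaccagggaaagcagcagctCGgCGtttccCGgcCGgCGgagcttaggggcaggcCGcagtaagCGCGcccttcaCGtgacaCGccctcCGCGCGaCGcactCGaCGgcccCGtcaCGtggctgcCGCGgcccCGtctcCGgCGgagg
The Trpm6 window holds 9 CG and the Trpm7 window 35, where the median of 27025 mouse promoter windows is 7. Fewer CG than Trpm6 were found in 53.8% of those windows and fewer than Trpm7 in 93.3%. Cnnm2 has 21 CG and Slc41a3 has 8. The AP-1 motif TGANTCA, searched on both strands, has no match in any of the 4 windows and a match in 7.93% of all windows. The RefSeq start of Trpm6 is upstream of the GENCODE start. The Slc41a3 window, at chr6:90618996-90619295 (plus), lies inside the GENCODE gene, which starts at 90604725.

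Trpm6 RNA was present in PT-like nuclei of all 5 IRI libraries and close to absent from those of all 4 controls. PT-like nuclei had 5484 Trpm6 UMIs in 9737 IRI nuclei, against 42 in 10768 control nuclei. The level was 185 and 202 CPM in the day 7 libraries, 146, 142 and 257 CPM in the day 28 libraries, and 2.87, 1.05, 4.49 and 2.79 CPM in the controls. The lowest IRI library was far above the highest control and the groups did not overlap. The means were 194 ± 12.6 CPM on day 7 (SD, n = 2), 182 ± 65.0 CPM on day 28 (SD, n = 3) and 2.80 ± 1.40 CPM in controls (SD, n = 4). edgeR's quasi-likelihood fit gave log2 differences from control of 6.08 (SE 0.37) on day 7 and 5.97 (SE 0.36) on day 28, both against the same 4 controls. Day 28 library 1, the IRI library with the controls' barcode set, gave 5.60 (SE 0.39) when only libraries of that set were fitted.

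The share of PT-like nuclei with at least 1 Trpm6 UMI was 32.8% and 28.7% on day 7, 15.2%, 25.7% and 46.8% on day 28, and 0.503%, 0.194%, 0.336% and 0.505% in controls. This share moved with depth, and was lowest among IRI libraries in the shallowest and highest in the deepest. After each nucleus was thinned to 1000 UMIs it was 15.4% and 16.6% on day 7, 12.3%, 11.3% and 20.9% on day 28, and 0.131% to 1.30% in controls. A nucleus held up to 15 Trpm6 UMIs on day 7, 18 on day 28 and 2 in controls. Nuclei with 3 or more made up 7.07% on day 7 and 5.62% on day 28, against 0 of 10768 control nuclei, which allows a share of up to 0.0279%.

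**Figure D1:**
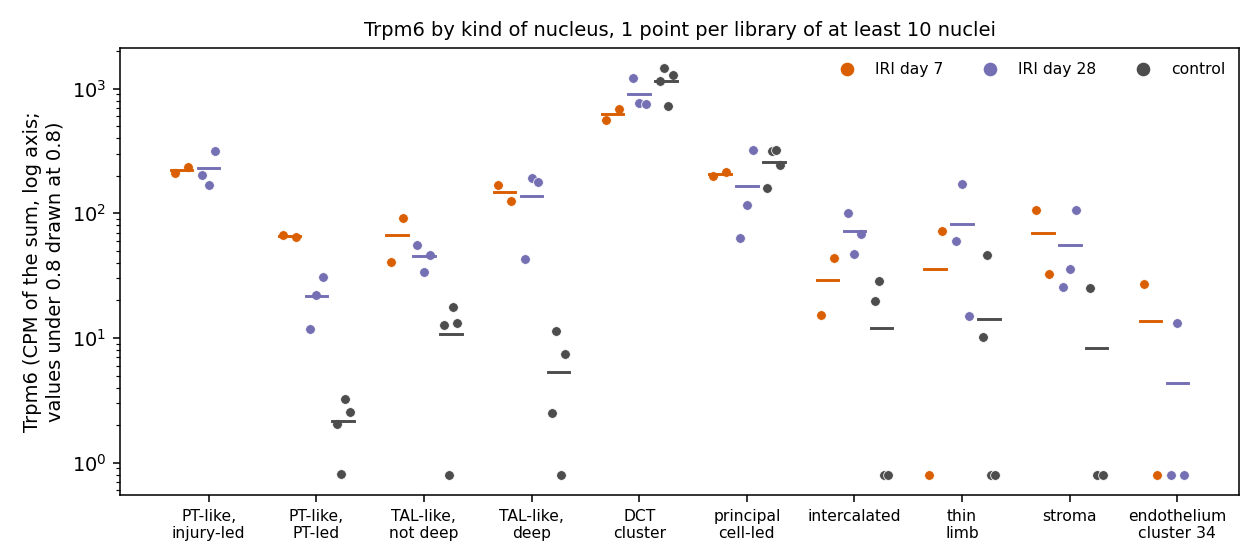
Trpm6 level (CPM of the summed nuclei, log axis) by kind of nucleus, with 1 point per library of at least 10 nuclei and bars at the group means, for IRI day 7, IRI day 28 and control. The injury-led PT-like clusters, summed together, lie between 169.7 and 316 CPM in IRI libraries, while in the DCT cluster the IRI and control points overlap.

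The 2 kinds of PT-like cluster differed within the IRI libraries. Clusters led by injury markers had 212 and 236 CPM of Trpm6 on day 7 and 203, 169.7 and 316 CPM on day 28. Pooled over IRI libraries, single injury-led clusters ran from 74.8 CPM (893 nuclei, Havcr1 at 1370 CPM) to 349 CPM (967 nuclei, Havcr1 at 1515 CPM). The 25 control nuclei in the injury-led clusters had 9 Trpm6 UMIs, which is 224 CPM with an exact Poisson 95% interval of 102 to 425 that covers counting error only. Clusters led by classical proximal markers had 66.8 and 64.1 CPM on day 7, 11.9, 22.2 and 31.0 CPM on day 28, and 2.05, 0.817, 3.22 and 2.57 CPM in controls. Every IRI library was above every control in the proximal-led clusters as well, and the day 7 libraries were above the day 28 libraries.

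RNA that leaks from broken cells can put Trpm6 UMIs in any nucleus, so Trpm6 was also read in endothelium-, stroma- and leukocyte-like nuclei. They had 110.1 and 75.5 CPM of Trpm6 on day 7, 27.9, 73.1 and 78.2 CPM on day 28, and 34.9, 8.51, 0 and 6.82 CPM in controls. The injury-led PT-like level was above the non-epithelial level in all 5 IRI libraries, and the proximal-led level was below it in all 5. The control PT-like level was below it in 3 of 4 controls. Not every injury-led cluster was above it, since the lowest, at 74.8 CPM, was under the non-epithelial level of 86.2 CPM pooled over IRI libraries. The part of leaked RNA in these levels was not tested. A Trpm6 UMI was found in 9.09% of the 1067 non-epithelial IRI nuclei at a median of 1242 UMIs, and in 28.8% of PT-like IRI nuclei at a median of 2692 UMIs. After thinning the shares were 5.18% and 14.5%.

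The level was not the same in every non-epithelial cluster. In IRI libraries, 1 endothelium-like cluster of 232 nuclei had 11.9 CPM of Trpm6 from 3 UMIs, with Lrp2 at 67.5 CPM and Havcr1 at 51.6 CPM. The other, of 212 nuclei, had 134 CPM of Trpm6, with Lrp2 at 563 CPM and Havcr1 at 702 CPM. Proximal and injury transcripts were thus high in the endothelium-like cluster in which Trpm6 was high. Whether shared droplets or merged nuclei contribute was not tested.

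Most transcripts of the distal tubule were not higher beside Trpm6 in PT-like nuclei. Slc12a3, the sodium-chloride cotransporter that defines the DCT, was 10.0 and 9.64 CPM on day 7, 20.5, 6.26 and 3.21 CPM on day 28, and 32.2, 9.33, 17.3 and 11.4 CPM in controls, with overlapping groups. The summed level of the 8 distal markers was 60.3 to 109 CPM in IRI libraries and 118 to 229 CPM in controls. At day 7, 1 of the 8 was higher than in control (Slc8a1, a sodium-calcium exchanger) and 3 were lower. Of the others, 3 did not pass and Trpv5 was below the low-count filter. Over all 14102 genes tested at day 7, 3717 were higher and 3528 lower. At day 28, Slc8a1 was higher, 5 were lower, 1 did not pass and Trpv5 was again below the filter. Over all genes tested at day 28, 3438 were higher and 3014 lower. The calls of the 8 markers are thus to be read against a high background in both directions. Pvalb was at 0 in 4 of the 5 IRI libraries.

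In DCT nuclei there were 0.0737 to 0.108 Trpm6 UMIs per Slc12a3 UMI in IRI libraries and 0.0330 to 0.0858 in controls. In PT-like nuclei the ratio was 18.4 and 21.0 on day 7, 7.14, 22.7 and 79.9 on day 28, and 0.0892, 0.112, 0.259 and 0.245 in controls. The PT-like ratio of control 1 lies inside the range of DCT nuclei and those of the other controls above it. These control ratios rest on 7 to 14 Trpm6 UMIs per library. The IRI PT-like ratios lie far above all of these, and the source of the RNA was not tested. Of the PT-like IRI nuclei with a Trpm6 UMI, 1.03% to 2.54% also had an Slc12a3 UMI, against 92.7% to 100% of such nuclei in the DCT cluster of the IRI libraries.

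**Figure D2:**
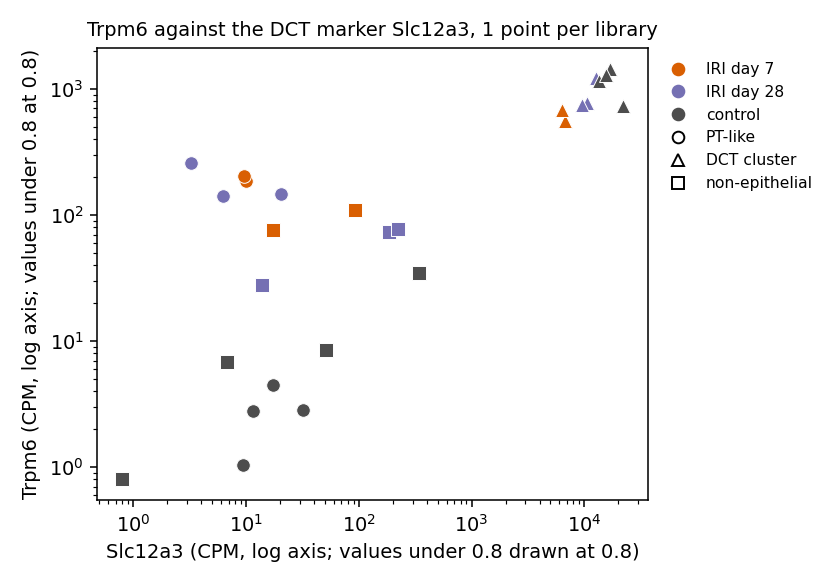
Trpm6 against Slc12a3 (both in CPM, log axes), 1 point per library, for PT-like nuclei (circles), the DCT cluster (triangles) and non-epithelial nuclei (squares). PT-like nuclei of IRI libraries sit between 142 and 257 CPM of Trpm6 at 3.21 to 20.5 CPM of Slc12a3, the range of Slc12a3 that the control PT-like nuclei share in part.

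Against the segment in which Trpm6 is known to act, PT-like nuclei of IRI libraries reached a part of the level. The PT-like level was 33.2% and 29.5% of that in the DCT cluster of the same library on day 7, 12.1%, 18.5% and 34.3% on day 28, and 0.0724% to 0.618% in controls. Fewer cells of a type and less RNA per cell cannot be told apart in such sums.

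Between the 2 times after injury, Trpm6 in PT-like nuclei did not differ by more than the spread between libraries. The log2 difference of day 28 from day 7 was -0.11 (SE 0.33, adjusted p = 0.883, edgeR's quasi-likelihood test with Benjamini-Hochberg adjustment over 14102 genes). The day 28 libraries were on both sides of the day 7 libraries, and without day 28 library 1 or 2 the sign turned (0.04 and 0.03). Of the 3 members tested 0 passed in this comparison by edgeR, where 5.50% of all genes did. By DESeq2 0 of 3 passed as well, where 1329 of 14102 genes did, and 0 of 3 had an unadjusted edgeR p under 0.05, where 2986 genes did. The day 7 libraries also entered the comparison from which Trpm6 was chosen.

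Within IRI libraries, PT-like nuclei with an injury transcript had more Trpm6 than PT-like nuclei without one. Havcr1 (KIM-1, the classical injury marker) and Vcam1 (an adhesion molecule kept in tubule cells that fail to repair) defined the injury state, so line, sort and barcode set were equal on both sides. Nuclei with neither numbered 3394, while the proximal-led clusters held 1822 IRI nuclei, so many of the former lay in injury-led clusters. A nucleus is thus not shown to be uninjured by the lack of a UMI of these genes. Nuclei with a UMI of either had 202 and 223 CPM of Trpm6 on day 7 and 211, 164 and 301 CPM on day 28. Nuclei with neither had 67.0 and 109 CPM on day 7 and 91.7, 108 and 143 CPM on day 28. The first value was higher in 5 of 5 libraries, and the 2 ranges did not overlap. The log2 difference was 1.06 (SE 0.11, adjusted p = 1.41e-06, edgeR's quasi-likelihood test with the library as a block). The day 7 libraries of this test also entered the comparison from which Trpm6 was chosen, so its p-value is not independent of that choice. All 3 members that could be tested passed by injury state, Trpm6 as higher and Trpm7 and Cnnm2 as lower, where 28.1% of all genes passed.

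Nuclei with an injury transcript were deeper, with a median of 3016 UMIs, against 2109.5 UMIs in those with neither. After thinning, the share with a Trpm6 UMI was 16.8% and 19.4% on day 7 and 17.3%, 13.5% and 24.2% on day 28 in the nuclei with an injury transcript. It was 8.26% and 6.90% on day 7 and 7.95%, 8.32% and 13.3% on day 28 in the nuclei with neither, lower in 5 of 5 libraries. Their level was above that of the non-epithelial nuclei in 4 of 5 libraries, day 7 library 1 being the exception. In controls, 113 PT-like nuclei had a Havcr1 or Vcam1 UMI and held 10 Trpm6 UMIs, 41.9 CPM (exact Poisson 95% interval 20.1 to 77.1), against 1.68 CPM (1.15 to 2.37) in the 10655 with neither.

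Trpm6 was also read by which of the marker pair was present. Pooled over IRI libraries, Trpm6 was 192 CPM in the 2770 PT-like nuclei with Havcr1 alone, 234 CPM in the 1513 with Vcam1 alone and 219.7 CPM in the 2060 with both. Day 28 library 3 gave the highest value of each kind, with 257, 317 and 295 CPM. Among the day 7 libraries, nuclei with Vcam1 alone had 131 and 199 CPM, and those with Havcr1 alone 186 and 229 CPM. These values are a description without a test.

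**Figure D3:**
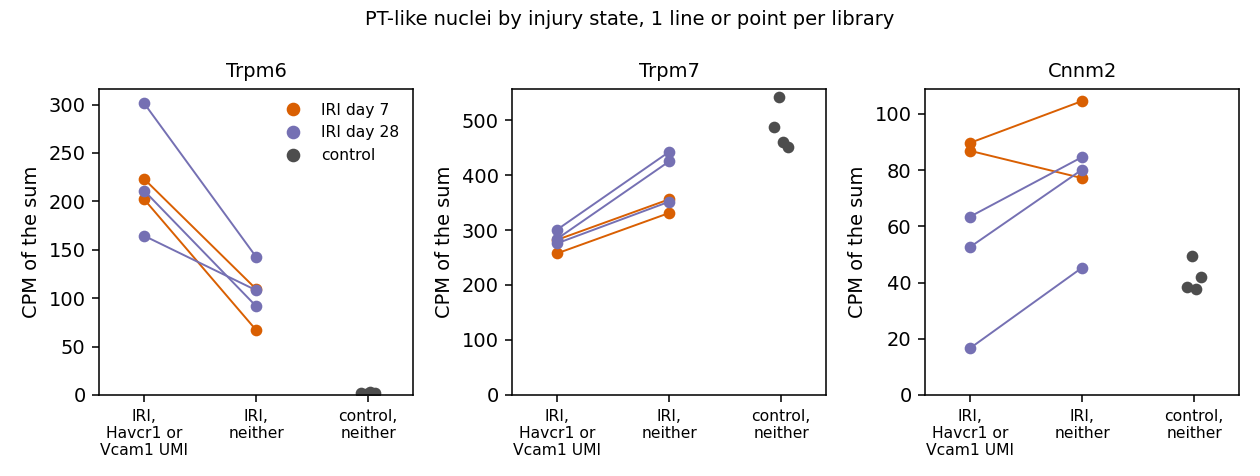
Trpm6, Trpm7 and Cnnm2 (CPM of summed PT-like nuclei) in IRI nuclei with a Havcr1 or Vcam1 UMI, in IRI nuclei with neither, and in control nuclei with neither, 1 point per library with lines joining the pair of sums of a library. Trpm6 falls along all 5 lines, Trpm7 rises along all 5, and Cnnm2 rises along 4 of 5.

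In TAL-like nuclei, which were not used to choose the gene, Trpm6 was also higher after injury, with limits that end the call. It was 145 and 122 CPM on day 7, 52.1, 107 and 124 CPM on day 28, and 7.59, 9.37, 8.14 and 9.55 CPM in controls, and the groups did not overlap. The log2 difference of IRI from control was 3.54 (SE 0.36, adjusted p = 1.65e-06, edgeR's quasi-likelihood test over 7758 genes). Trpm6 (higher) and Trpm7 (lower) passed of the 3 members tested, where 29.5% of all genes did. Different clusters held most TAL-like nuclei of the 2 conditions, and 2 of the 4 clusters were deep, with a median UMI count above 1.5 times that of their own libraries.

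The deep TAL-like clusters had 168 and 126 CPM of Trpm6 on day 7 and 42.8, 192 and 179.5 CPM on day 28, and they also held more proximal and injury RNA. In IRI libraries Lrp2 was 418 CPM in them, against 56.0 CPM in the other TAL-like nuclei, and Havcr1 was 587 CPM, against 82.0 CPM. The other TAL-like nuclei had 40.6 and 92.1 CPM of Trpm6 on day 7, 55.6, 33.6 and 46.5 CPM on day 28, and 12.7, 0, 17.7 and 13.1 CPM in controls, from 36 UMIs in 424 IRI nuclei and 7 in 553 control nuclei. In 3 of the 5 IRI libraries that is under the non-epithelial level. Without the deep clusters and without a low-count filter the log2 difference was 1.90 (SE 0.65, adjusted p = 0.0689). With the barcode set as a covariate it was 2.52 (adjusted p = 0.0763), and within the older set 2.44 (adjusted p = 0.426).

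In the 2 distal clusters with nuclei enough in both conditions, Trpm6 overlapped between IRI and control. In the DCT cluster, the known site of the channel, Trpm6 was 556 and 686 CPM on day 7, 1214, 771 and 749 CPM on day 28, and 1146, 1449.9, 726 and 1281 CPM in controls, from 22 to 60 nuclei per IRI library and 11 to 52 per control. The groups overlapped, and the controls with few nuclei had wide counting intervals (267 to 1581 CPM for control 3). Principal cell-led nuclei had 198 and 214 CPM on day 7, 63.5, 116 and 319 CPM on day 28, and 158, 315, 319 and 246 CPM in controls, again overlapping. The connecting tubule-led cluster had 604 CPM in IRI libraries from 48 UMIs in 25 nuclei, against 252 CPM in controls from 193 UMIs in 248 nuclei. Of those IRI nuclei 16 were of day 28 library 1, at 451 CPM, above the 4 controls at 215 to 301 CPM, and the other IRI libraries had 1 to 4 nuclei each.

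In distal-like nuclei as a whole Trpm6 was 398 and 531 CPM on day 7, 721, 359 and 540.2 CPM on day 28, and 334, 368, 340.3 and 349 CPM in controls. The log2 difference was 0.33 (SE 0.22, adjusted p = 0.285), and without the deep connecting tubule-led cluster, in which 248 of 273 nuclei were from controls, it was -0.37 (adjusted p = 0.35). Of the 3 members tested, Cnnm2 passed in distal-like nuclei, where 26.6% of all genes did. On the log2 scale the difference between the IRI effects, distal-like minus TAL-like, was -3.29 for Trpm6 (SE 0.41, adjusted p = 4.49e-06, where 0.425% of 6822 genes passed). It was -2.03 (SE 0.59, adjusted p = 0.0812) without the deep clusters and without a low-count filter. The TAL-like controls, at 7.59 to 9.55 CPM, give this log2 difference a low base.

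Intercalated-like and thin limb-like nuclei had low levels of Trpm6. Intercalated-like nuclei had 47.8 CPM in IRI libraries from 20 UMIs in 144 nuclei, against 16.1 CPM in controls from 4 UMIs in 125. Thin limb-like nuclei had 61.3 CPM from 17 UMIs in 128 IRI nuclei, against 15.9 CPM from 7 UMIs in 348 control nuclei. Both lie near or under the non-epithelial level of 86.2 CPM in IRI and 17.3 CPM in control libraries. By the level pooled over IRI libraries, the DCT cluster (721 CPM) led the tubule kinds, before the connecting tubule-led nuclei (604 CPM, 25 nuclei). Injury-led PT-like (218 CPM), principal cell-led (192 CPM) and deep TAL-like nuclei (156 CPM) came next. Below them were thin limb-like (61.3 CPM), intercalated-like (47.8 CPM), the other TAL-like (46.9 CPM) and proximal-led PT-like nuclei (42.8 CPM). The library ranges of the injury-led, principal cell-led and deep TAL-like kinds overlap. Cycling-like nuclei of no tubule kind had 197 CPM.

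Trpm7 moved the other way in PT-like nuclei, and by less. It was 267 and 296 CPM on day 7, 377, 305 and 323 CPM on day 28, and 486, 543, 457 and 447 CPM in controls. All IRI libraries were below all controls. The log2 differences from control were -1.03 (SE 0.23) on day 7 and -0.80 (SE 0.20) on day 28, given without a test, and -0.78 and -0.53 without scaling factors for composition. Day 28 differed from day 7 by 0.23 (SE 0.23, adjusted p = 0.60).

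Trpm7 was below the controls in both kinds of PT-like cluster on day 7, and on day 28 in the injury-led clusters. The injury-led clusters had 248 and 273 CPM on day 7 and 295, 281 and 277 CPM on day 28. The proximal-led clusters had 347 and 388 CPM on day 7, 573, 411 and 502 CPM on day 28, and 486, 543, 459 and 448 CPM in controls, so that day 28 overlapped control there and day 7 did not. Inside IRI libraries, nuclei with a Havcr1 or Vcam1 UMI had 257 and 282 CPM on day 7 and 301, 276 and 284 CPM on day 28, against 331 and 356 CPM on day 7 and 442, 352 and 425 CPM on day 28 in nuclei with neither. The log2 difference was -0.44 (SE 0.07, adjusted p = 0.00012, edgeR's quasi-likelihood test), with Trpm7 lower in 5 of 5 libraries.

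In TAL-like nuclei Trpm7 was 288 and 313 CPM on day 7, 399.8, 342 and 304 CPM on day 28, and 417, 472, 334 and 387 CPM in controls, with overlap. Its log2 difference was -0.53 (SE 0.19, adjusted p = 0.0368), a call lost without the deep clusters (-0.18, adjusted p = 0.719), with the barcode set as a covariate (-0.27, adjusted p = 0.849) and without any 1 of control 1, 2 or 4, day 28 library 2 or 3 or either day 7 library (adjusted p = 0.0563 to 0.148). In distal-like nuclei it was 573 and 893 CPM on day 7, 1110.4, 741 and 845 CPM on day 28, and 646, 765, 647 and 505 CPM in controls, with overlap and a log2 difference of 0.15 (SE 0.21, adjusted p = 0.64). The DCT cluster had the highest Trpm7 of the tubule kinds, 794 and 1191 CPM on day 7, 1603, 1506 and 1605 CPM on day 28, and 1537, 2206, 1452 and 1164 CPM in controls.

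**Figure D4:**
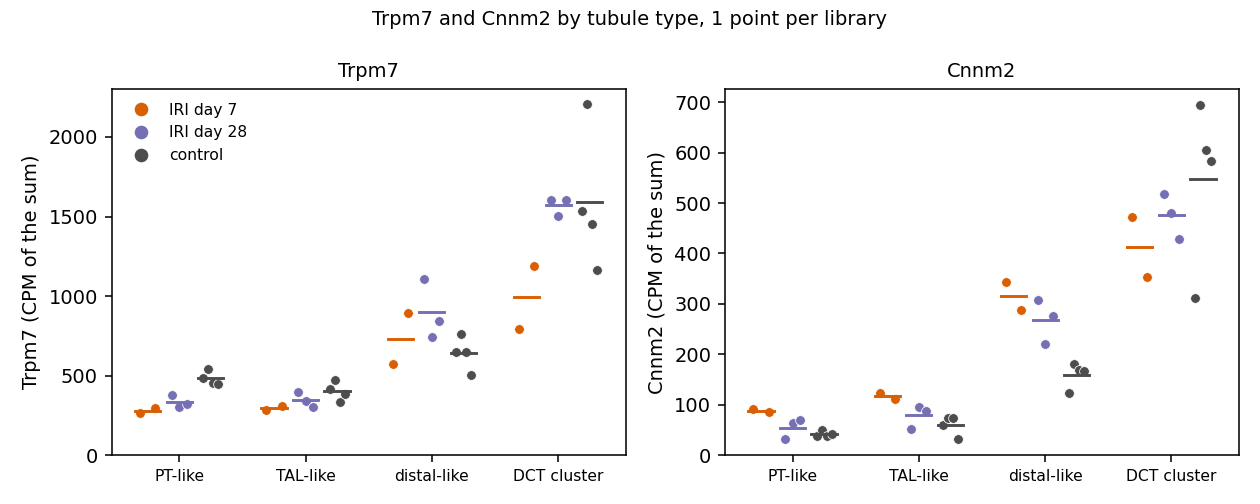
Trpm7 (left) and Cnnm2 (right) in CPM by tubule type, 1 point per library with bars at the group means, for IRI day 7, IRI day 28 and control. Trpm7 of PT-like nuclei lies between 267 and 377 CPM in IRI libraries, below the controls at 447 to 543 CPM, and Cnnm2 of distal-like nuclei between 221 and 343 CPM, above the controls at 123 to 180.4 CPM.

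Cnnm2 in PT-like nuclei was 91.6 and 85.1 CPM on day 7, 32.2, 63.4 and 69.4 CPM on day 28, and 38.5, 49.7, 38.4 and 41.4 CPM in controls. The 4 IRI libraries with the newer barcode set were above all controls, and day 28 library 1, with the controls' set, was below all of them. The log2 differences were 0.81 (SE 0.30) on day 7 and 0.14 (SE 0.28) on day 28, and with the barcode set as a covariate they were -0.33 and -0.73, so that their direction is not settled. Non-epithelial nuclei had 88.5 and 70.4 CPM on day 7, 20.9, 100.1 and 43.4 CPM on day 28, and 21.8, 72.3, 82.1 and 40.9 CPM in controls, a range that covers the PT-like values in both conditions. Day 28 differed from day 7 by -0.68 (SE 0.32, adjusted p = 0.25).

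By injury state Cnnm2 was lower in nuclei with a Havcr1 or Vcam1 UMI, opposite to Trpm6. These had 89.7 and 86.9 CPM on day 7 and 16.6, 52.6 and 63.4 CPM on day 28, against 105 and 77.2 CPM on day 7 and 45.3, 80.2 and 84.7 CPM on day 28 in nuclei with neither. It was lower in 4 of 5 libraries, with a log2 difference of -0.38 (SE 0.13, adjusted p = 0.0379). The call was lost without any 1 of the day 28 libraries or without day 7 library 1 (adjusted p = 0.0676 to 0.18).

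In distal-like nuclei Cnnm2 was 343 and 288 CPM on day 7, 308, 221 and 277 CPM on day 28, and 123, 180.4, 170.1 and 167 CPM in controls, without overlap. The log2 difference was 0.71 (SE 0.21, adjusted p = 0.0207). Without the connecting tubule-led cluster it was 0.12 (adjusted p = 0.812), and in the DCT cluster, the site of the protein, Cnnm2 was 472 and 354 CPM on day 7, 519, 481 and 428 CPM on day 28, and 313, 693, 605 and 582 CPM in controls, which overlap. The call was also lost without any 1 of control 1 or 4, day 28 library 3 or day 7 library 1 (adjusted p = 0.0556 to 0.145) and with the barcode set as a covariate (1.00, adjusted p = 0.255). In TAL-like nuclei it was 124 and 112 CPM on day 7, 52.1, 96.6 and 88.3 CPM on day 28, and 59.4, 75.0, 73.2 and 33.4 CPM in controls, and the log2 difference of 0.52 (SE 0.26) did not pass (adjusted p = 0.15).

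Slc41a3 was close to undetected. PT-like nuclei had 42 of its UMIs in 9737 IRI nuclei, which is 1.41 CPM, and 10 in 10768 control nuclei, which is 0.518 CPM. Distal-like nuclei had 4 UMIs in 551 IRI nuclei and 4 in 508 control nuclei, and TAL-like nuclei had 2 in 797 IRI nuclei and 0 in 854 control nuclei. Non-epithelial nuclei of IRI libraries stood at 2.96 CPM, above the PT-like level. It was below the low-count filter in every comparison, and no difference was detectable at this depth.

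Of the 37 other magnesium genes, 33 were tested in PT-like nuclei, and Cldn16, Kcna1, Kcnj10 and Casr were below the low-count filter. At day 7, 11 were higher and 11 lower than in control, with a median log2 difference of -0.28, and at day 28, 9 were higher and 15 lower, with a median of -0.08. Over all genes tested 51.4% passed at day 7 and 45.8% at day 28, with medians of 0.01 and 0.03, so the list's 22 and 24 calls of 33 are to be read against a high background. At day 7, 3717 of all genes were higher and 3528 lower, a split that became 4764 and 2726 without scaling for composition, with the median of all genes then at 0.25. The list then split 13 and 9 at day 7 and 11 and 11 at day 28. With the barcode set as a covariate 3 genes of the list were higher and 6 lower at day 7, and 4 higher and 9 lower at day 28, and within the v2 set 2 were higher and 5 lower at day 28. Without day 7 library 1 the day 7 counts were 5 and 7, and without day 7 library 2 they were 6 and 7.

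**Figure D5:**
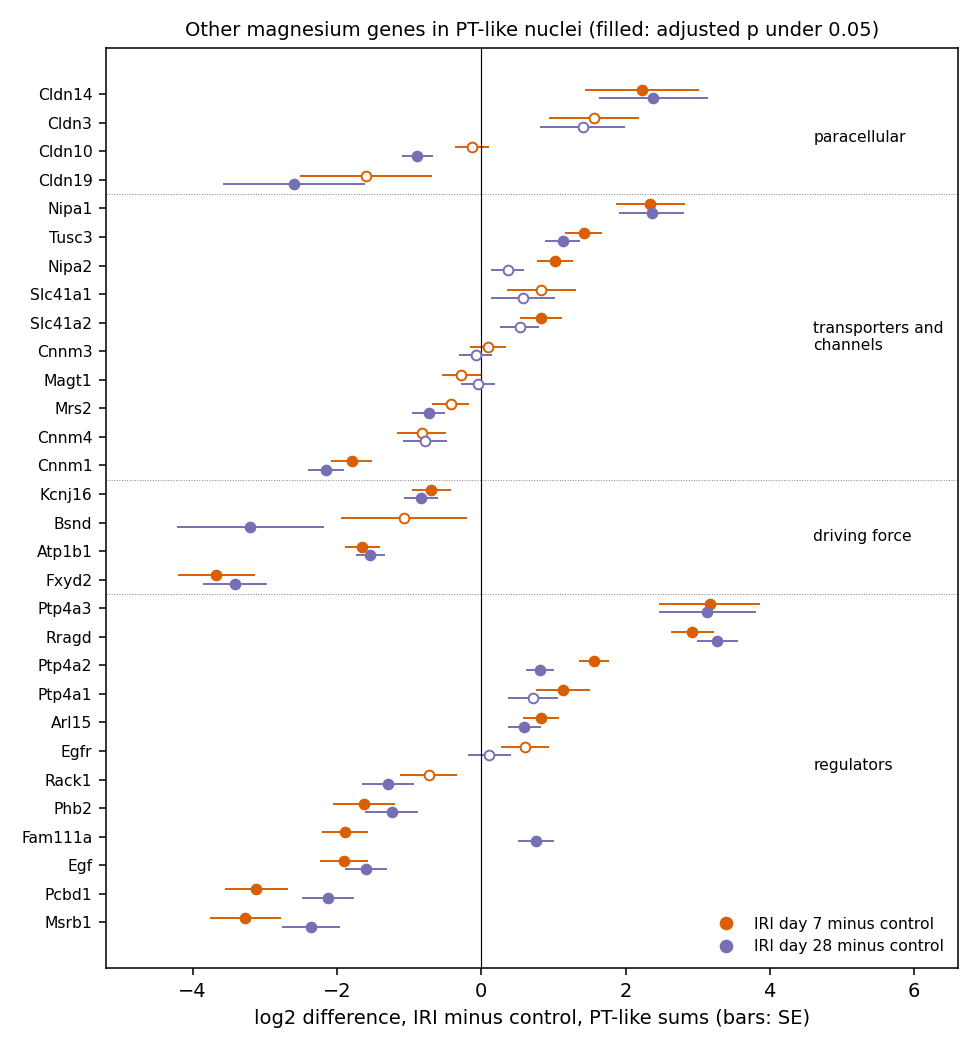
Log2 differences of IRI day 7 and IRI day 28 from control in PT-like sums for tested genes of the magnesium list, grouped by role, with bars for SE and filled points for an adjusted p under 0.05. The driving force genes lie left of 0 at both times, from -0.69 for Kcnj16 to -3.67 for Fxyd2 at day 7, while regulators lie on both sides.

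Of the claudins, Cldn14, which narrows the paracellular magnesium path, was higher at day 7 (2.23, SE 0.79) and day 28 (2.39, SE 0.76), at only 2.10 and 2.39 CPM, against 0.292 CPM in controls. At day 28 Cldn10 (-0.89, SE 0.21) and Cldn19 (-2.59, SE 0.98) were lower. Cldn3 at 1.56 and 1.40 did not pass.

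Of the 10 tested transporters and channels, 4 were higher and 1 lower at day 7. Nipa1 (2.34, SE 0.48), Nipa2 (1.02, SE 0.25), Slc41a2 (0.82, SE 0.29) and Tusc3 (1.42, SE 0.26) were higher, all known from magnesium transport assays. Cnnm1, a relative of Cnnm2, was lower at day 7 (-1.79, SE 0.28) and at day 28 (-2.15, SE 0.25). At day 28 Nipa1 (2.36, SE 0.45) and Tusc3 (1.13, SE 0.24) were again higher, and Mrs2, the mitochondrial magnesium channel, was lower (-0.73, SE 0.23). Magt1 and Cnnm3 did not pass, with -0.28 and 0.10 at day 7.

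Of the genes that set the voltage and sodium gradient for magnesium entry, 5 of 6 tested were lower at day 7, where 3528 of 14102 genes were lower. Among them were the sodium pump subunit Atp1b1 (-1.65, SE 0.24), the pump regulator Fxyd2 (-3.67, SE 0.53) and the potassium channel subunit Kcnj16 (-0.69, SE 0.27). At day 28 all 6 tested were lower, where 21.4% of all genes were, and Bsnd, a chloride channel subunit that had not passed at day 7 (-1.07, SE 0.87), stood at -3.20 (SE 1.02). Fxyd2 was 83.9 and 90.8 CPM on day 7, 211, 52.0 and 66.2 CPM on day 28, and 679.9, 771, 1326 and 1049 CPM in controls, with no overlap.

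Regulators split evenly at day 7, with 6 of 13 higher and 5 lower. The phosphatases Ptp4a1 (1.13, SE 0.37), Ptp4a2 (1.56, SE 0.21) and Ptp4a3 (3.17, SE 0.70), which bind CNNM proteins, were higher, as were the GTPase Arl15 (0.83, SE 0.25) and the mTORC1 activator Rragd (2.93, SE 0.30). Rragd was 40.6 and 49.7 CPM on day 7, 49.2, 58.1 and 65.6 CPM on day 28, and 6.96, 5.13, 3.84 and 3.02 CPM in controls. Lower at day 7 were the transcriptional cofactor Pcbd1 (-3.12, SE 0.44), Msrb1 (-3.27, SE 0.49) and Phb2 (-1.62, SE 0.43), Fam111a (-1.89, SE 0.32) and the magnesium-conserving hormone Egf (-1.90, SE 0.33). In PT-like nuclei Egf was 9.92 and 10.1 CPM on day 7, 9.94 to 18.1 CPM on day 28 and 24.6 to 46.1 CPM in controls. Control TAL-like nuclei had 3092.5 to 5227.9 CPM of Egf, and the part of leaked RNA in its PT-like level was not tested. Egfr, the receptor of Egf, did not pass (0.61, SE 0.33).

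At day 28, Ptp4a2, Ptp4a3, Arl15 and Rragd were again higher (0.60 to 3.27), Fam111a was higher (0.76, SE 0.25), and Pcbd1, Msrb1, Phb2, Egf and Rack1 lower (-2.36 to -1.24). Fam111a, mutated in a human disorder with low blood calcium and magnesium, was higher at day 28 than at day 7 as 1 of 33 genes of the list, where 4.16% of all genes were higher, and 0 of 33 were lower. It was 8.45 and 9.22 CPM on day 7, 74.9, 49.4 and 46.7 CPM on day 28, and 25.6, 28.5, 19.2 and 34.7 CPM in controls. All day 7 libraries were below all controls and all day 28 libraries above them. Its log2 difference of day 28 from day 7 was 2.65 (SE 0.34, adjusted p = 0.0015, edgeR's quasi-likelihood test).

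In TAL-like nuclei 4 of 28 tested genes of the list were higher and 11 lower, with a median of -0.11 where all genes had -0.01. Over all genes 942 were higher and 1346 lower, against 1535 and 1094 without scaling for composition, when the list split 5 and 8. With the barcode set as a covariate, and within the v2 set, 0 genes of the list passed in either direction by edgeR. Without the deep clusters 0 were higher and 7 lower, and without day 7 library 2, 1 was higher and 7 lower. Nipa2 (0.84), Ptp4a2 (0.83) and Rragd (1.34) were among the higher genes. Cldn10, Cldn19, Fxyd2, Atp1b1, Bsnd, Egf, Pcbd1, Rack1 and Msrb1 were among the lower genes, from -2.43 for Msrb1 to -0.58 for Cldn10. In distal-like nuclei 0 of 26 were higher and 6 lower with edgeR's quasi-likelihood test, while 4 were higher at an unadjusted p under 0.05 and 0 by DESeq2. Among the lower genes were Fxyd2 (-2.10), Atp1b1 (-0.56), Pcbd1 (-2.08), Phb2 (-1.67) and Msrb1 (-1.58), with a median of -0.21 where all genes had 0.05. Over all genes 756 were higher and 985 lower, against 1207 and 805 without scaling for composition, when the list split 5 and 4. In distal-like sums as well 0 genes of the list passed with the barcode set as a covariate or within the v2 set, and without day 7 library 1, 3 were lower.

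By injury state within IRI libraries, 7 of 28 were higher and 10 lower in PT-like nuclei with a Havcr1 or Vcam1 UMI, where 13.4% of all genes were higher and 14.6% lower. The list's median was -0.00 and that of all genes 0.00. Arl15 (0.35), Nipa1 (0.65), Ptp4a2 (0.56), Rack1 (0.50), Rragd (0.45), Slc41a2 (0.47) and Tusc3 (0.38) were higher. Among the lower genes were Cldn10 (-1.07), Cnnm1 (-1.14), Cnnm4 (-1.34), Kcnj16 (-0.23), Fxyd2 (-0.73), Atp1b1 (-0.81), Pcbd1 (-0.65) and Msrb1 (-0.81).

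The genes whose level followed Trpm6 most closely over 43 sums of class and library were sought among 15059 genes, with Pearson's r on log2(CPM + 10) as the measure. They were Sgms2 (0.87), Mpped2 (0.84), Frk (0.83), Cadps2 (0.83), Cd9 (0.83) and Gpr39 (0.82), each of which was high both in the DCT cluster and in PT-like nuclei of IRI libraries. In PT-like nuclei Sgms2, a sphingomyelin synthase, was 316 CPM in IRI, against 120.4 CPM in control libraries, and Gpr39, a zinc-sensing receptor, was 101 CPM, against 1.35 CPM. Cnnm2 stood at rank 46 (0.70), Rragd at 55 (0.69), Trpm7 at 2580 (0.32) and Slc41a3 at 3412 (0.27). The sums share libraries and the IRI and control split of the PT-like class, and no test was made of these correlations.

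Trpm6 spans 142.5 kb, among the 2791 longest genes tested in PT-like nuclei. The median log2 difference of those long genes was 0.49 at day 7 and 0.30 at day 28, and 99.0% and 99.2% of them were below Trpm6. Trpm7 and Cnnm2, at 84.7 and 118.6 kb, belong to the same 2791 genes, of which 18.5% and 59.9% were below them at day 7.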

How the data were processed

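UMI counts per gene and nucleus were used as deposited by the authors in 2 tables, 1 for the IRI and 1 for the control libraries. Per the submitters' processing notes, Cell Ranger, STAR and Seurat were used with the mm10 build; for versions, filters and the counting of intronic reads, the sources used here say nothing. Nuclei were sorted for GFP with doublets gated at the sorter, per the labels' protocols, and no doublet caller was run. Nuclei were normalised and clustered (Leiden, scanpy 1.11.5, 2000 variable genes, 30 components, 20 neighbours, resolution 2.0), and clusters named from marker lists. The members, marker lists and magnesium list were chosen with earlier results of these data known, and the naming rule was set after the scores were seen.

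Counts were summed per library and class (at least 20 nuclei) and tested with edgeR 4.0.16 (filterByExpr, TMM factors, quasi-likelihood test, Benjamini-Hochberg adjustment over all genes tested, threshold 0.05). CPM in the text carry no TMM factor. The comparison by injury state has the library as a block. The text names the members, the genes of the magnesium list that passed a test with up to 4 that did not, and the 6 genes closest to Trpm6 by correlation. Some genes of the list enter its counts and medians but are not reported here by name. P-values measure the spread between these libraries, which the labels do not tie to separate mice beyond their titles. Intervals are exact, at 95%, and with a floor of 3 counts cover counting error only. DESeq2 1.42.0 and the other alternatives are described at the end. On simulated counts for PT-like sums at day 7, 75% of genes changed 4-fold and 9% of those changed 2-fold were recovered over 14102 genes.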

Additional observations from a re-analysis of the deposited data

Results flagged for a closer look

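On the log2 scale, Trpm6 differed between IRI and control more in TAL-like than in distal-like sums, with a difference of -3.29 (distal-like minus TAL-like, SE 0.41, adjusted p = 4.49e-06, edgeR's quasi-likelihood test). It was -2.03 without the deep clusters (adjusted p = 0.0812), and the part of the proximal RNA in those clusters was not tested. The TAL-like mean was 8.66 CPM in controls, under the control non-epithelial level of 17.3 CPM, and 110 CPM in IRI libraries. The distal-like means were 348 and 510 CPM. The log2 difference thus starts from a low base in TAL-like sums, and the part of leaked RNA in it was not tested.

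Trpm6 was present in nuclei that entered no comparison. Cycling-like nuclei of the IRI libraries had 197 CPM (exact Poisson 95% interval 174 to 223) from 258 UMIs in 359 nuclei, against 0 UMIs in 24 control nuclei. An unnamed cluster of 1726 IRI nuclei, with no control nucleus, had 35.8 CPM of Trpm6 from 178 UMIs. It scored 0.037 on the injury list and 0.035 on the classical proximal list, where a name needed 0.5. Its Lrp2 was 1197 CPM and its Havcr1 515 CPM. This cluster held 15.0% and 22.4% of the nuclei of the day 7 libraries and is left out of the PT-like levels above. Its Trpm6 level is under the non-epithelial level of 86.2 CPM in the IRI libraries.

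Slc41a3 was 13.0 CPM in the DCT cluster of control 1 and 0 in the other controls, which set this library apart from the others in its group. The value is 1 UMI, and with 3 controls at 0 any single UMI sets its library apart, so nothing is read from it.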

How the results depend on the processing

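Of 2113 values recomputed under alternatives, 1754 were labelled as unchanged. For tested genes that means the same direction and side of the threshold, and for counts of genes called, within 1.5 times. For the members against control in PT-like sums it means the same direction and a log2 shift under the SD between libraries. For shares and levels it means a shift under that SD. The direction reversed in 6 values of Trpm6 and in 11 values of other genes. Trpm6 in PT-like sums kept a log2 difference of 5.57 to 6.45 at day 7 and 5.60 to 6.25 at day 28. With the barcode set as a covariate the genes called were 2024 at day 7, 3070 at day 28, 50 in TAL-like and 83 in distal-like sums, and the log2 differences were 0.046 for Trpm6 between times, 2.52 for Trpm6 in TAL-like sums, -0.33 and -0.73 for Cnnm2 at day 7 and day 28, -0.22 for Cnnm2 in TAL-like sums and -0.13 for Slc41a2 at day 7. Within the v2 set, where 1 IRI library remains and is assumed to vary like the others, the counts were 1967 at day 28, 88 in TAL-like and 82 in distal-like sums, with Trpm6 at 2.44, Cnnm2 at -0.33, Cldn19 at 0.49 and Egf at 0.012 in TAL-like sums and Cnnm2 at -0.72 at day 28. Without deep clusters 426 and 864 genes were called in TAL-like and distal-like sums (692 and 1057 with no filter as well), with Trpm6 at -0.37 and Trpm7 at -0.16 in distal-like sums. With no filter as well, Trpm6 was 1.90 in TAL-like and -0.13 in distal-like sums, and Trpm7 0.023 in TAL-like sums. Between times DESeq2 called 1329 genes. With the unnamed cluster counted as PT-like, Trpm6 stood at 0.11. The title numbers did not pair libraries (correlations of -0.202 to 0.099), and a replicate block gave 376 genes between times and 1107 in distal-like sums. Leaving out 1 library at a time gave 4569 to 8087 genes at day 7 and 139 to 917 between times, Trpm6 between times at -0.44 to 0.044, and Cnnm2 at day 28 at -0.045 to 0.39. The mean share of PT-like nuclei with Trpm6 was 30.7% at day 7, 16.0% after thinning and 33.9% without nuclei under 1000 UMIs, where controls had 0.642%. The deep-cluster, v2, unnamed-cluster and no-TMM alternatives were chosen after seeing the data, and the cause of these changes was not tested. Slc41a3 was too sparse to test at this depth.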
